A study of Homo sapiens with 4 samples.

Results

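The contractile actin-binding genes are those whose proteins build or control actin stress fibres, the tension-bearing cables of a cell. They were taken by name from the deposited gene table, and the 10 genes ACTA2, TAGLN, CNN1, CNN2, CNN3, MYL9, TPM1, TPM2, CALD1 and ACTN1 were all found among the 16595 genes with a value. Their RNA was measured in U87, a human malignant glioma cell line, in 4 RNA-seq libraries. Both libraries of the knockdown group are titled PTP2 with the genotype PTPRN knockdown. The title is read here as shPTPRN-2, a short hairpin that the study lists against PTPRN. PTPRN is a receptor of the tyrosine phosphatase family, found in secretory granules, and the study describes its phosphatase domain as inactive. Both libraries of the control group carried the scrambled hairpin (shScr, genotype SCR). The hairpins were cloned in the vector pLKO.1. On this reading of the titles, the knockdown group rests on 1 hairpin. The sources do not state whether replicates were separate cultures, so the spread between them may be technical. Although the samples are labelled U87, their growth protocol speaks of hCMEC/D3, which is a line of brain endothelium.

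In a contractile cell, actin filaments slide along bipolar filaments of myosin II. The light chain of myosin switches the motor on when it is phosphorylated, tropomyosins and caldesmon lie along the actin filament and set its access to myosin, calponins and transgelin stabilize the filaments, and alpha-actinin ties them together. Smooth muscle cells and myofibroblasts carry large amounts of these proteins, and many of the genes are known targets of serum response factor (SRF), which binds the DNA element called the CArG box and is switched by the actin-sensing cofactors MRTFA and MRTFB.

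Expression was given as FPKM, the fragments mapped to a gene per kilobase of transcript, scaled to all mapped fragments of the library, so levels can be compared between genes. Depth was estimated at 17400000 to 18800000 reads per library from the steps between low FPKM values. Groups were compared with limma on log2(FPKM + 1), with p-values adjusted by the Benjamini-Hochberg method over all genes tested. A fold change on this scale understates the change of weakly expressed genes. PTPRN itself had 12.09 and 11.68 FPKM with shPTPRN-2 against 84.84 and 85.02 FPKM with shScr, a log2 fold change of -2.74. Replicates had a Pearson correlation of 0.999 across genes within each group, and the correlation was 0.961 to 0.962 between groups.

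All 10 contractile genes were lower with shPTPRN-2. The summed FPKM of the group was 420 and 416 with shPTPRN-2 against 899 and 891 with shScr. The median log2 fold change was -1.0 over the 10 genes and 0.01 over all genes tested. The 10 genes were chosen with earlier results of these data known, so shares over all genes describe the list and do not test it. Every gene of the group passed an adjusted p of 0.05 in the lower direction, which 27.1% of all genes did. The highest adjusted p of the 10 was 7.64e-04 (limma). Both shPTPRN-2 libraries lay below both shScr libraries for each of the 10 genes, which was so for 35.8% of all genes, while 39.7% of all genes lay wholly above. The study's own thresholds, a fold change of 2 or more together with an adjusted p no higher than 0.001, were passed by 5 of the 10 (CNN1, TAGLN, CALD1, CNN2 and ACTN1). They were passed by 6.69% of all genes, and by 4.06% in the lower direction. Among the 6257 genes with a mean of at least 10 FPKM, as 9 of the 10 had, 31.7% were lower at an adjusted p of 0.05, 5.69% passed the study's thresholds in the lower direction and 37.5% did not overlap in that direction. The call of these 5 did not hold without any one library, with a pseudocount of 0.1 or with the replicate block, where 0 of the 10 passed 0.001. With 2 libraries per group the lowest p an exact two-sided permutation test could give for 1 gene is 0.33. The lower values of limma rest on an assumed normal distribution, and limma also borrows the spread of other genes. In RNA from a whole culture, fewer cells of a type and less RNA per cell cannot be told apart.

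**Figure D1:**
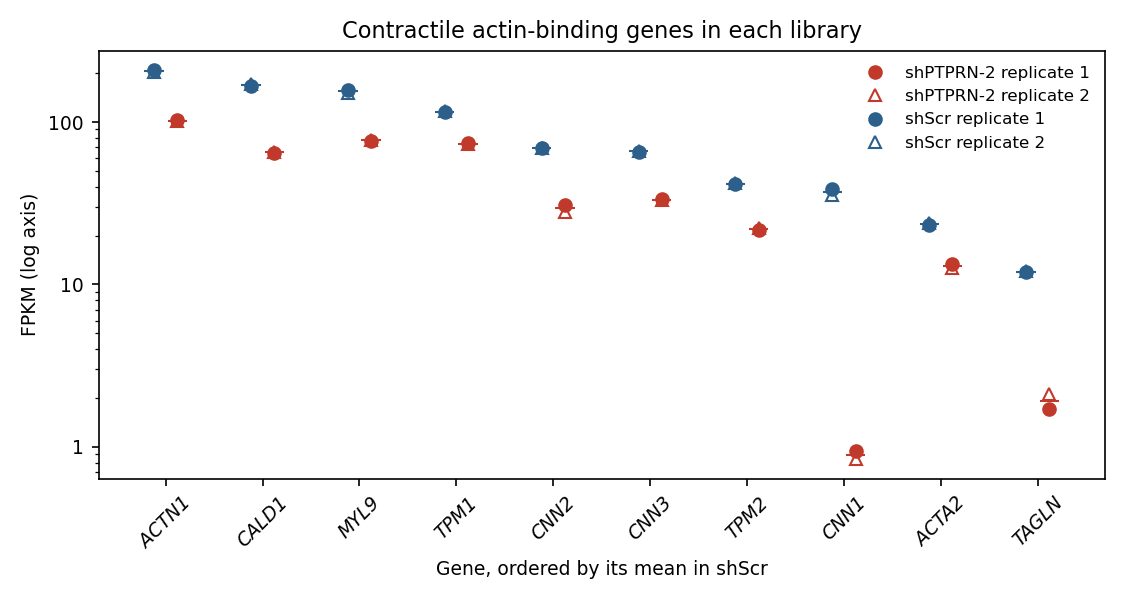
FPKM of the 10 contractile genes in each library on a log axis, ordered by the shScr mean. Circles and triangles are replicates 1 and 2, and short lines are group means of 2 libraries; the shPTPRN-2 points lie under the shScr points for every gene, with the widest gap for CNN1.

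**Figure D2:**
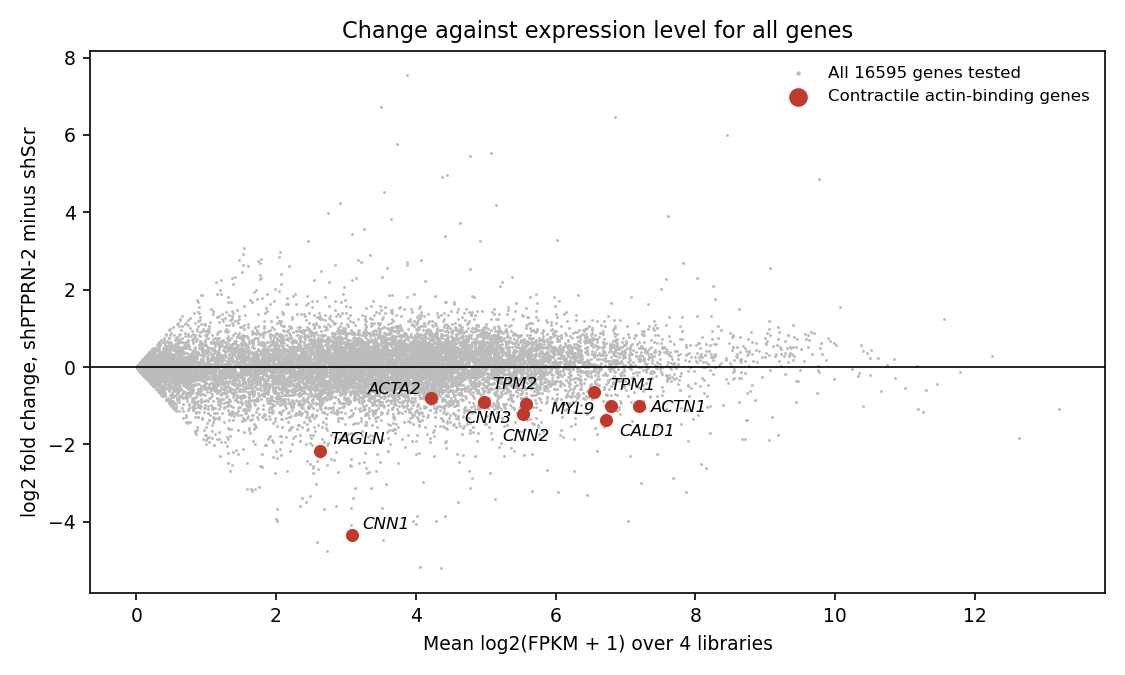
The log2 fold change (shPTPRN-2 minus shScr) of all 16595 genes tested, on the y axis, against the mean log2(FPKM + 1) over the 4 libraries, with the 10 contractile genes in red. Apart from TAGLN and CNN1 they sit between -1.36 and -0.64, and these 2 lie further down at -2.16 and -4.34.

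ACTA2 encodes alpha-smooth muscle actin, the actin isoform that marks smooth muscle and myofibroblasts. It lies on chromosome 10 from 88935074 to 88991397 (GRCh38, minus strand). Its level was 13.41 and 12.61 FPKM with shPTPRN-2 against 23.17 and 23.98 FPKM with shScr. The groups did not overlap, and the log2 fold change was -0.81 (95% interval -0.94 to -0.68, adjusted p = 7.64e-04, limma). ACTA2 was a minor actin in these cells, since it held 0.460% ± 0.0177 (SD, n = 2) of the FPKM summed over 6 actin genes with shScr and 0.387% ± 0.00413 (SD, n = 2) with shPTPRN-2. The cytoplasmic actins ACTB and ACTG1 made up nearly all of the rest. ACTB had 2093.98 and 1996.07 FPKM with shPTPRN-2 against 3103.57 and 3063.62 FPKM with shScr (log2 fold change -0.59, adjusted p = 0.00105, limma). The log2 fold change of ACTG1 was -0.63 and that of ACTG2, the enteric smooth muscle actin, was -0.69, both past the threshold of 0.05. Shares of a family are given without a test. ACTA1 and ACTC1, the skeletal and cardiac muscle actins, stayed at or below 0.23 FPKM in every library.

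The RefSeq promoter windows, which run from 250 bases before a transcript start to 50 bases after it (GRCh38.p14), were searched for CArG boxes, since SRF is a known regulator of this gene group. The search took CC, then 6 bases, then GG, with all 6 or with 5 of the 6 being A or T, a pattern that reads as itself on the other strand. The table held 17 windows for 8 of the 10 genes. A box with 6 A or T bases was found in 2 of the 17 windows and in 1.29% of all 35116 windows, and a box of either kind in 4 of the 17 windows and in 8.13% of all windows. The boxes are given here with 10 bases on each side and the box in capitals, 5′ to 3′ on the strand of the gene, to set the pair of ACTA2 boxes beside those of other members.

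ACTA2, 121 bases before the start, chr10:88952875-88952904, minus strand: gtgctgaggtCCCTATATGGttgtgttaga

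ACTA2, 71 bases before the start, chr10:88952825-88952854, minus strand: tgtctttgctCCTTGTTTGGgaagcaagtg

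CNN2, 89 bases before the start, chr19:1026509-1026538, plus strand: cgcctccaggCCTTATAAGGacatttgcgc

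ACTN1, 171 bases before the start, chr14:68977718-68977747, minus strand: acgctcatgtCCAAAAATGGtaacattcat

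CALD1, 26 bases before the start, chr7:134711463-134711492, plus strand: ccagaggtccCCTAAAGAGGaatacattct

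The CNN2 and ACTN1 boxes have 6 A or T bases between CC and GG, and those of ACTA2 and CALD1 have 5. ACTA2 has 2 windows and ACTN1 and CALD1 have 4 each, so the boxes of these genes belong to 1 of several starts. The boxes of ACTA2, CNN2 and ACTN1 lie inside the gene span given in the deposited table, and that of CALD1 lies before it. CNN1, which had the largest fall of the group, held no box of either kind in its window, and neither did CNN3, TPM1 or TPM2 in theirs. A match in these letters is a description of the sequence, and no match says only that the letters are not in this window.

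MYL9 encodes a regulatory light chain of myosin II, the subunit that is phosphorylated to start contraction. The gene lies on chromosome 20 from 36541484 to 36549823 (plus strand). MYL9 had 76.39 and 78.00 FPKM with shPTPRN-2 against 158.13 and 151.64 FPKM with shScr. The shPTPRN-2 mean was 49.8% of the shScr mean, and the log2 fold change was -1.0 (95% interval -1.10 to -0.89, adjusted p = 4.21e-04, limma). The genes MYL12A and MYL12B encode the regulatory light chains of nonmuscle myosin II. MYL12A had 223.50 and 226.29 FPKM against 314.70 and 318.96 FPKM (log2 fold change -0.49, adjusted p = 8.93e-04, limma). MYL12B had 295.83 and 296.09 FPKM against 275.45 and 287.91 FPKM, a log2 fold change of 0.07 that missed the threshold (adjusted p = 0.182, limma) and was -0.05 after quantile normalization. The share of MYL9 in the FPKM of these 3 genes was 20.6% ± 0.807 (SD, n = 2) with shScr and 12.9% ± 0.119 (SD, n = 2) with shPTPRN-2. Of the essential light chains, MYL6 (log2 fold change -0.06, adjusted p = 0.202) missed the threshold and MYL6B fell by 0.32 on the log2 scale (adjusted p = 0.00608, limma).

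Tropomyosins are coiled coils that run along the groove of the actin filament. TPM1 lies on chromosome 15 from 63042639 to 63071915 (plus strand) and TPM2 on chromosome 9 from 35681993 to 35690056 (minus strand). TPM1 had 74.30 and 73.00 FPKM with shPTPRN-2 against 114.59 and 116.27 FPKM with shScr. Its log2 fold change of -0.64 (95% interval -0.73 to -0.55, adjusted p = 5.93e-04, limma) was the smallest fall of the 10 genes, though its interval overlapped that of ACTA2. TPM2 had 21.53 and 22.25 FPKM against 41.63 and 42.05 FPKM, a log2 fold change of -0.90 (95% interval -1.0 to -0.81, adjusted p = 4.10e-04, limma). The other tropomyosin genes moved in opposite directions. TPM4, the most abundant of the family here, fell from 799.44 and 802.22 FPKM to 625.18 and 620.80 FPKM (log2 fold change -0.36, adjusted p = 0.00157, limma). TPM3 rose from 125.14 and 122.07 FPKM to 174.36 and 179.27 FPKM (log2 fold change 0.51, adjusted p = 0.00111, limma). The share of TPM3 in the summed tropomyosin FPKM was 11.4% ± 0.214 (SD, n = 2) with shScr and 19.7% ± 0.389 (SD, n = 2) with shPTPRN-2. The share of TPM2 was 3.87% ± 0.0229 (SD, n = 2) and 2.44% ± 0.057 (SD, n = 2) in the same order.

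CALD1 encodes caldesmon, which binds actin, tropomyosin and myosin and holds back the motor until calmodulin or phosphorylation releases it. It lies on chromosome 7 from 134779413 to 134971177 (plus strand). Its level was 64.57 and 65.63 FPKM with shPTPRN-2 against 167.26 and 170.21 FPKM with shScr. The shPTPRN-2 mean was 38.6% of the shScr mean (log2 fold change -1.36, 95% interval -1.45 to -1.27, adjusted p = 2.43e-04, limma). CALD1 was the second most abundant gene of the group with shScr and the fourth with shPTPRN-2.

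The largest fall of the group was in the calponin family. CNN1, the calponin of differentiated smooth muscle, lies on chromosome 19 from 11538717 to 11550323 (plus strand). It had 0.94 and 0.84 FPKM with shPTPRN-2 against 38.85 and 35.62 FPKM with shScr. Its shPTPRN-2 mean was 2.39% of the shScr mean, and the log2 fold change on FPKM + 1 was -4.34 (95% interval -4.51 to -4.17, adjusted p = 1.49e-04, limma). With a pseudocount of 0.1 in place of 1 it was -5.24. By its log2 fold change CNN1 ranked sixth from the lowest among the 16595 genes. The values with shPTPRN-2 correspond to about 31 and 28 reads, and those with shScr to about 1396 and 1180 reads.

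CNN2 and CNN3 are the calponins of non-muscle cells. CNN2, on chromosome 19 from 1026275 to 1039068 (plus strand), had 30.76 and 27.94 FPKM with shPTPRN-2 against 69.41 and 69.39 FPKM with shScr. Its log2 fold change was -1.22 (95% interval -1.38 to -1.05, adjusted p = 5.80e-04, limma). CNN3, on chromosome 1 from 94896949 to 94927223 (minus strand), had 33.42 and 33.16 FPKM against 65.80 and 65.95 FPKM, and a log2 fold change of -0.96 (95% interval -1.04 to -0.88, adjusted p = 3.32e-04, limma). The interval of CNN1 lay below that of every other gene of the group. CNN1 held 21.6% ± 1.05 (SD, n = 2) of the FPKM of the 3 calponins with shScr and 1.40% ± 0.0618 (SD, n = 2) with shPTPRN-2, while the summed calponin FPKM was 173 ± 2.19 (SD, n = 2) and 63.5 ± 2.25 (SD, n = 2).

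TAGLN encodes transgelin (SM22), a small calponin-like protein that gels actin filaments and is an early marker of smooth muscle. It lies on chromosome 11 from 117199324 to 117204792 (plus strand). It had the lowest level of the group with shScr, at 11.91 and 12.13 FPKM, and 1.72 and 2.12 FPKM with shPTPRN-2. The log2 fold change was -2.16 (95% interval -2.38 to -1.94, adjusted p = 4.10e-04, limma), the second largest fall of the 10. The replicates with shPTPRN-2 were the most unequal of the group, with a log2 difference of 0.20, and correspond to about 47 and 58 reads. Its relatives moved in both directions. TAGLN2, the abundant form of non-muscle cells, had 264.68 and 258.77 FPKM against 680.95 and 673.89 FPKM (log2 fold change -1.37, adjusted p = 2.43e-04, limma). TAGLN3, the form of neurons, rose from 3.38 and 2.63 FPKM to 19.24 and 17.95 FPKM (log2 fold change 2.30, adjusted p = 5.96e-04, limma), and with shPTPRN-2 it lay above TAGLN.

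ACTN1 encodes the alpha-actinin of stress fibres and focal adhesions, which cross-links actin filaments. It lies on chromosome 14 from 68874123 to 68979366 (minus strand). It was the most abundant gene of the group in both conditions, with 102.88 and 100.77 FPKM with shPTPRN-2 against 208.42 and 203.49 FPKM with shScr. The log2 fold change was -1.01 (95% interval -1.10 to -0.92, adjusted p = 3.59e-04, limma). The minimum fold change of 2 fell between ACTN1 (2.01-fold lower on FPKM + 1) and MYL9 (1.99-fold lower), whose intervals overlap. ACTN4, the other alpha-actinin of non-muscle cells, had 226.78 and 229.23 FPKM against 249.03 and 243.51 FPKM (log2 fold change -0.11, adjusted p = 0.0455, limma). The share of ACTN1 in the alpha-actinin FPKM was 45.5% ± 0.0162 (SD, n = 2) with shScr and 30.9% ± 0.477 (SD, n = 2) with shPTPRN-2. The muscle forms ACTN2 and ACTN3 stayed at or below 0.18 FPKM.

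**Figure D3:**
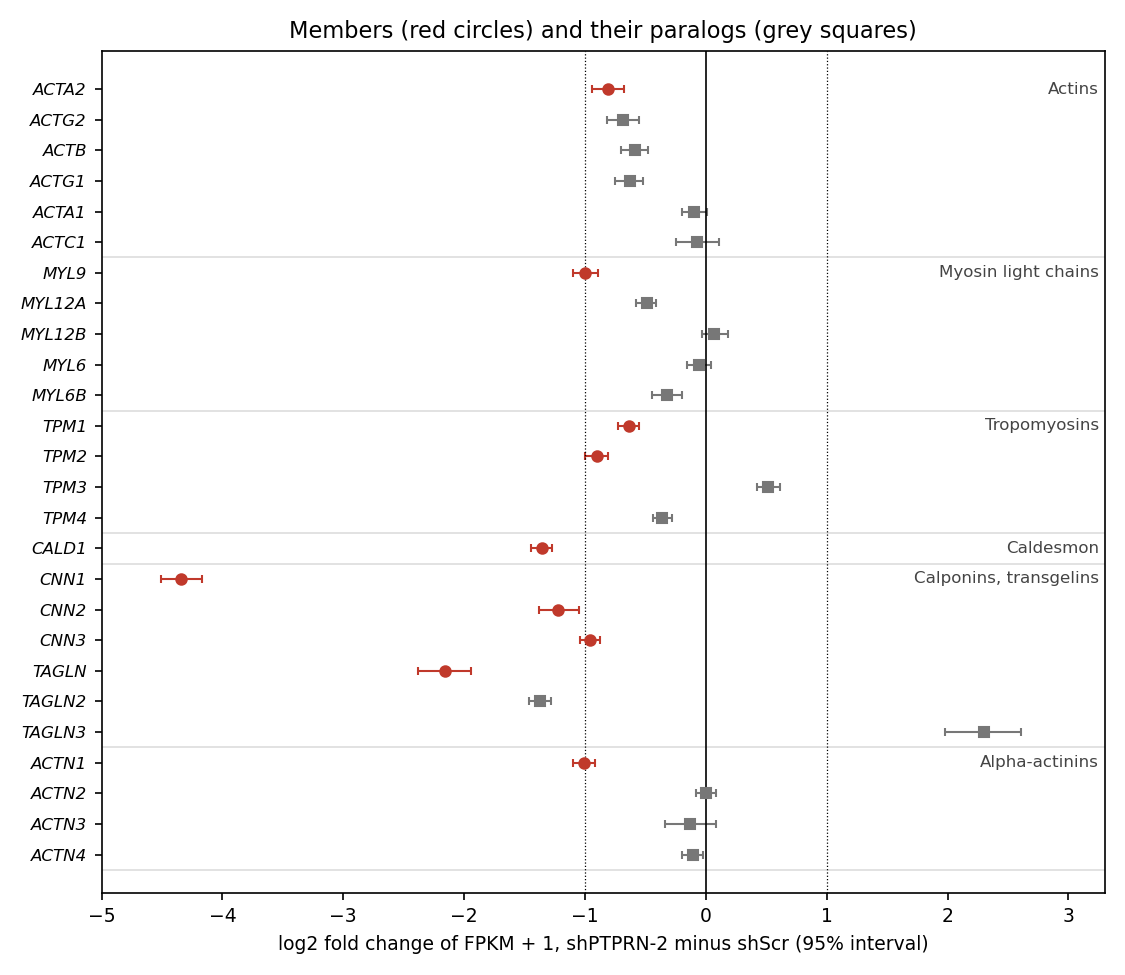
The log2 fold change of FPKM + 1 (shPTPRN-2 minus shScr) with its 95% interval for the 10 contractile genes (red circles) and 16 related genes of the same families (grey squares). Dotted lines mark a fold change of 2; every red circle lies left of 0, and TPM3 and TAGLN3 lie right of it.

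**Figure D4:**
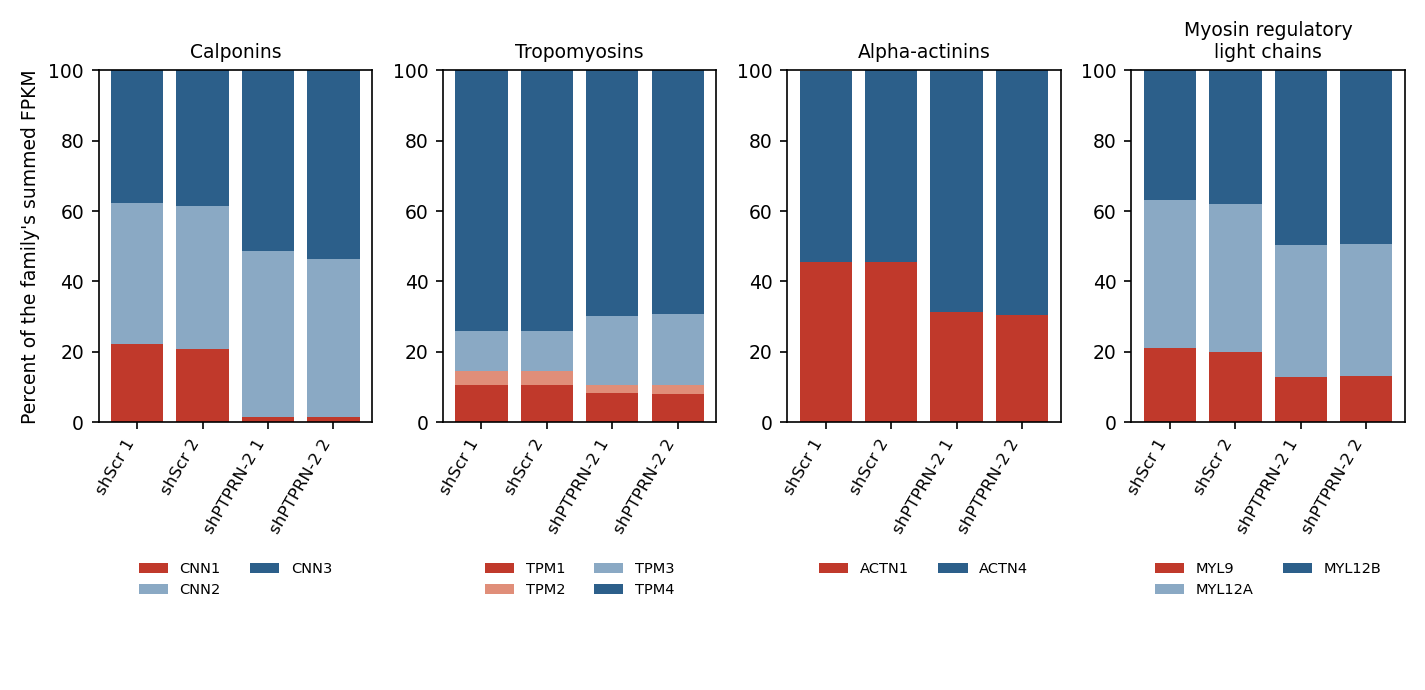
Percent of the summed FPKM of each family held by each gene, per library, for calponins, tropomyosins, alpha-actinins and myosin regulatory light chains; genes under 0.1% are left out. The red segments are CNN1, TPM1, ACTN1 and MYL9 and the light red ones TPM2, and CNN1 shrinks from 22.3% and 20.8% with shScr to 1.44% and 1.36% with shPTPRN-2.

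With shScr the levels ran from ACTN1 through CALD1, MYL9, TPM1, CNN2, CNN3, TPM2, CNN1 and ACTA2 to TAGLN. With shPTPRN-2 they ran from ACTN1 through MYL9, TPM1, CALD1, CNN3, CNN2, TPM2 and ACTA2 to TAGLN and CNN1. No 2 neighbours in either order had overlapping libraries. CNN1 went from eighth to last.

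Some reads of these genes may come from overlapping or similar transcripts, because the sources used here do not say whether the counting used strand. Of all stretches of 50 bases (the read length) in the GENCODE 29 coding transcripts of each gene, none of CNN1, CNN3, MYL9, TPM2 or CALD1 occurred in another gene. For ACTA2 the share was 41.3%, all on the opposite strand and from ACTA2-AS1 and FAS, and it was 30.5% for TPM1, mostly from TPM1-AS. For TAGLN it was 13.2%, from PCSK7 on the opposite strand, for CNN2 10.4% and for ACTN1 0.609%, from ACTN4. FAS had 6.49 and 7.10 FPKM with shPTPRN-2 against 5.92 and 5.16 FPKM with shScr (adjusted p = 0.0606, limma). PCSK7 was at 5.86 and 5.69 FPKM against 10.51 and 9.57 FPKM (log2 fold change -0.70, adjusted p = 0.00156, limma). ACTA2-AS1 and TPM1-AS were not found by name among the genes tested, so no level is given for them. The part of overlapping transcripts in the values of ACTA2, TPM1 and TAGLN was not tested.

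Over the 20 genes of the myosin II motor and its regulators that were tested, 5 fell and 6 rose (3 rose without shScr replicate 1 or without shScr replicate 2), with a median log2 fold change of 0.08. These counts lie near the background, since 27.1% of all genes fell and 30.8% rose, and both percentages are the background for each list of genes given here. The summed FPKM of the list was 1982 and 1965 with shPTPRN-2 against 1749 and 1733 with shScr. MYH9, the main nonmuscle myosin II heavy chain, had 197.53 and 204.13 FPKM with shPTPRN-2 against 410.16 and 413.85 FPKM with shScr (log2 fold change -1.03, adjusted p = 3.58e-04, limma). MYLK, the kinase that phosphorylates MYL9, was named after its values were seen, and it had 9.80 and 9.44 FPKM against 31.93 and 33.98 FPKM (log2 fold change -1.68, adjusted p = 3.10e-04, limma). The kinase DAPK3 (-0.28), which also phosphorylates myosin light chains, was among those that fell. PPP1R14B (0.29), an inhibitor of protein phosphatase, was among those that rose. Other genes of this list rose by more than PPP1R14B and are not reported here.

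SRF itself had 9.02 and 9.98 FPKM with shPTPRN-2 against 16.63 and 16.25 FPKM with shScr (log2 fold change -0.73, adjusted p = 0.00157, limma). MRTFA, listed under its older name MKL1, had 6.51 and 6.49 FPKM against 12.17 and 11.32 FPKM (log2 fold change -0.76, adjusted p = 8.65e-04, limma), and MRTFB, listed as MKL2, fell by 0.23 on the log2 scale (adjusted p = 0.0296, limma). The list of SRF and its cofactors had a median log2 fold change of -0.01. Of its 8 genes 3 fell and 2 rose, near the 27.1% and 30.8% of all genes. The 2 that rose were ELK1 (0.44) and ELK3 (0.30), partners of SRF at growth-response genes. When shScr replicate 1 or shScr replicate 2 was left out, 1 gene fell and 1 rose. MYOCD, the smooth muscle cofactor of SRF, stayed at or below 0.02 FPKM.

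Among the 24 scaffold genes of focal adhesions and stress fibres, 15 fell and 4 rose, against 27.1% and 30.8% of all genes, with a median log2 fold change of -0.38, and 2 rose without shPTPRN-2 replicate 2 or without shScr replicate 2. Those that fell and had the highest levels were the filamin FLNA (-0.42), zyxin (ZYX, -0.49) and CSRP1 (-0.93), a LIM protein of the actin cytoskeleton. Those that rose with the highest levels were the muscle filamin FLNC (0.29), FHL2 (0.28) and the actin polymerization factor VASP (0.27). CSRP1 had 79.57 and 77.31 FPKM with shPTPRN-2 against 155.39 and 145.96 FPKM with shScr, a difference of the size seen in CNN3 and TPM2. Of the 16 related genes of the same families as the contractile genes, 8 fell and 2 rose, against the same 27.1% and 30.8%.

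Markers of cells that carry a contractile program were compared in the same libraries. Other smooth muscle markers were scarce: of the 8 tested, 6 stayed under 1 FPKM in all 4 libraries, and the smooth muscle myosin MYH11 was at or below 0.20 FPKM. Smoothelin (SMTN), the most abundant of them, rose from 43.75 and 42.29 FPKM to 66.02 and 65.91 FPKM (log2 fold change 0.61, adjusted p = 7.51e-04, limma), in the direction opposite to the contractile genes. DES (-0.82) and LMOD1 (-0.36), both under 1 FPKM in every library, were among the 3 that fell, and the other was ACTG2 (-0.69). The lists share genes: SMTN and LMOD1 were also counted among the scaffold genes, and ACTG2 among the related genes. Of the 12 pericyte and fibroblast markers tested, 8 fell and 2 rose, against 27.1% and 30.8% of all genes, and their summed FPKM was 293 and 297 with shPTPRN-2 against 1414 and 1398 with shScr. COL1A1 (log2 fold change -3.97), COL1A2 (-1.87) and FAP (-1.35) were the most abundant that fell. ABCC9 (0.89), a potassium channel subunit of pericytes, and the growth factor receptor PDGFRA (0.61) rose, and 1 gene rose in place of 2 when shPTPRN-2 replicate 1 or shPTPRN-2 replicate 2 was left out. Of this list POSTN was at or below 0.02 FPKM and RGS5 at or below 0.42 FPKM in every library. Whether the cultures held any such cells, and what part they had in the result, was not tested. Of the 10 endothelial markers tested, 8 stayed under 1 FPKM in all libraries, 2 fell (VWF, -0.89, and PECAM1, -0.62) and 3 rose (ERG, 0.75, KDR, 0.47, and TEK, 0.41; 1 gene without shScr replicate 1), and CDH5 and CLDN5 were at or below 0.03 FPKM. Of the 11 markers of U87 and glioma tested, 4 fell and 4 rose, or 2 rose without shScr replicate 1 or without shScr replicate 2. The shares over all genes, 27.1% lower and 30.8% higher, apply to each of these marker lists. VIM (4766.13 and 4564.50 FPKM against 1997.70 and 1918.05 FPKM) rose, as did CD44 (1.05) and FABP7 (0.81), while TNC (-1.37), CHI3L1 (-1.55) and NES (-1.78) fell. In the same list GFAP was at or below 0.55 FPKM, SOX2 at or below 0.27 FPKM and S100B at or below 0.05 FPKM.

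**Figure D5:**
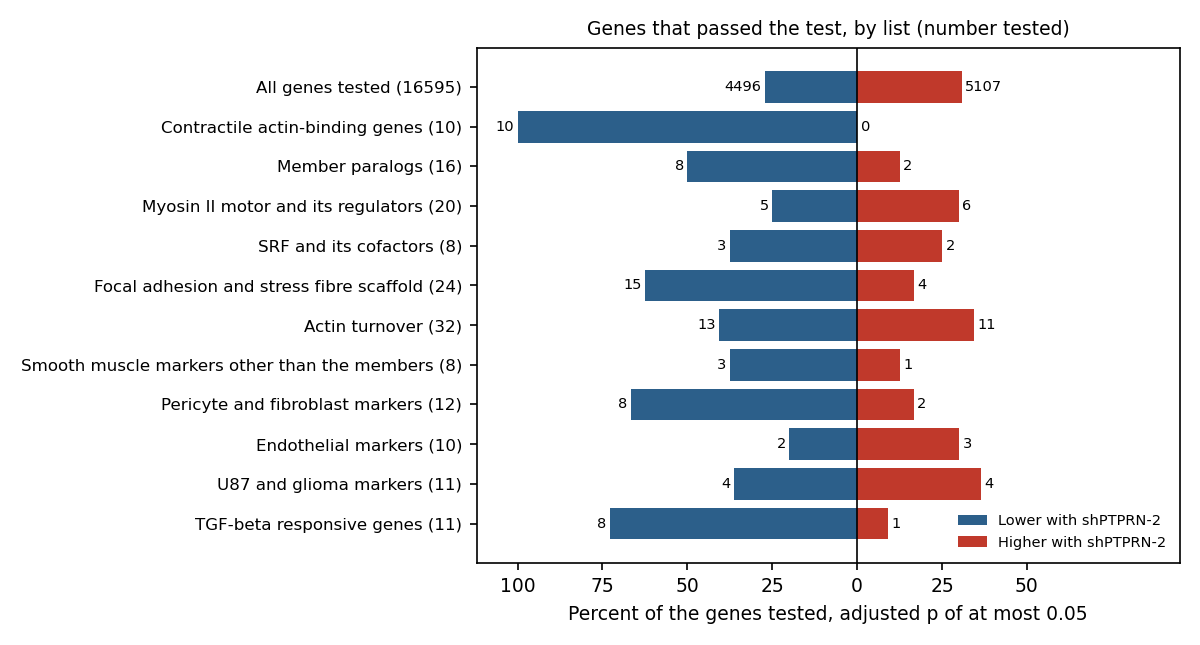
Percent of the tested genes of each list that passed an adjusted p of 0.05 (limma), lower with shPTPRN-2 to the left and higher to the right, with the number of genes at the end of each bar and the number tested in brackets. The contractile genes lie wholly on the left, while all genes split into 4496 lower and 5107 higher.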

How the data were processed

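RNA from U87 cells with shPTPRN-2 or shScr (2 libraries each) was sequenced by BGI on a BGISEQ-500, single-end, 50 bases. The authors deposited FPKM values rounded to 2 decimals, and no read counts. HISAT2 2.1.0 and the build hg19 are named in the submitters' processing notes. The gene positions in the table nevertheless overlapped RefSeq GRCh38.p14 positions for 96.9% of 19253 matched genes, so coordinates are given as GRCh38. The counting program is not given in the sources used here. Columns with the authors' own fold changes, p-values and group averages were not used. The 66380 FPKM values compared between both tables were identical.

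Group differences in log2(FPKM + 1) were fitted in limma 3.58.1 (R 4.3.3, lmFit and eBayes with default options) for the 16595 genes that were not at 0 throughout, with no covariate, and the fit was tested on simulated data. Reads per library were estimated from genes with 1 transcript of 600 to 2000 bases, whose low values of up to 6 reads fell within 0.2 reads of whole multiples in 89.4% to 92.5% of cases. The read numbers of single genes use the longest transcript and are approximate.

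The members and gene lists were chosen with earlier results of these data known. All members were named; of each other list, up to 3 called genes per direction with the highest mean FPKM, and every relative of a member. Other names were chosen after their values were seen. The alternatives were a pseudocount of 0.1, a minimum of 1 FPKM in 2 libraries, the replicate block, quantile and median-ratio scaling, eBayes trend and robust options, and leaving out each library. A few marker genes without a value are not analysed here. The set of RefSeq promoter windows searched here had no window for TAGLN or MYL9. Some genes named by this rule are not reported here.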

Additional observations from a re-analysis of the deposited data

How the results depend on the processing

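Each of the 10 contractile genes stayed lower and at an adjusted p of at most 0.05 under all 11 alternatives (110 of 110 values, highest adjusted p = 0.0338, limma). PTPRN did so as well. The count of 5 contractile genes at a fold change of 2 and an adjusted p of 0.001 was 0 with a pseudocount of 0.1, with the replicate block and without any one library (0 to 0). In these fits 0 of all genes were called by limma in place of 1111, and 0 had an adjusted p of at most 0.001, while 8700 to 10185 genes and all 10 contractile genes had an unadjusted p under 0.05. By the fold change alone, 6 contractile genes passed with that pseudocount, 5 with the replicate block and 4 to 6 without one library. At an adjusted p of 0.05, 6181 to 6332 genes were called without one library, in place of 9603. A single library in a group is then assumed to vary like the other group. The median log2 fold change of the contractile genes was -1.12 after quantile normalization and -1.05 after median-ratio scaling, in place of -1.0. After quantile normalization MYL12B had a log2 fold change of -0.05 and CFL1 one of -0.18, in the reverse direction. ACTN2, at or below 0.01 FPKM, had reversed values of 0.00 (pseudocount of 0.1), 0.00 (quantile normalization) and 0.01 (without shPTPRN-2 replicate 1 and without shScr replicate 1), and ranged from -0.01 to 0.01 without one library. For the 66 other genes followed, 53 of 714 values lost the threshold of 0.05 and 2 gained it. The deviations of same-numbered libraries had a correlation of 0.0635 across 11272 genes, so the numbers gave no sign of pairing.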

Other observations

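Genes of actin turnover, which assemble, cap and sever filaments, split in both directions. Over all genes, 27.1% fell and 30.8% rose at an adjusted p of 0.05. Of the 32 tested, 13 fell and 11 rose, with a median log2 fold change of -0.04, and 7 or 6 rose without shPTPRN-2 replicate 1 or 2. TMSB4X, thymosin beta-4, which holds actin monomers in reserve, had 1640.94 and 1634.93 FPKM with shPTPRN-2 against 3655.00 and 3664.38 FPKM with shScr (log2 fold change -1.16, adjusted p = 2.65e-04, limma). The capping protein subunit CAPZB (-0.36) and WDR1 (-0.31), a cofactor of cofilin, also fell. The other capping protein subunits of the list, CAPZA1 (0.97) and CAPZA2 (0.39), rose. Cofilin itself (CFL1) rose by 0.18 on the log2 scale but had -0.18 after quantile normalization, and CAP1 (0.25) and the Arp2/3 subunit ARPC3 (0.30) rose.

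Among 11 genes known to respond to transforming growth factor beta, a signal that raises contractile genes in fibroblasts, 8 fell and 1 rose. Over all genes, 27.1% fell and 30.8% rose, and the median log2 fold change of the 11 was -0.56. FN1, fibronectin, had 51.63 and 51.54 FPKM with shPTPRN-2 against 417.39 and 424.73 FPKM with shScr (log2 fold change -3.0, adjusted p = 1.24e-04, limma). TGFBI (-2.60) and BHLHE40 (-0.56) fell too.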
